A study of Mus musculus with 6 samples.

Results

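The miRNAs described here are those of the miR-143 and miR-145 cluster and of the miR-199 and miR-214 genes, which are known as miRNAs of the liver's stroma. They were chosen by name, as every probe of the mouse NanoString panel called miR-143, miR-145, miR-199a, miR-199b or miR-214 in any arm, and 5 of the 599 probes of the panel met this rule. The 5 probes were mmu-miR-143, mmu-miR-145, mmu-miR-199a-3p, mmu-miR-199a-5p and mmu-miR-214. RNA came from fresh frozen livers of C57Bl/6 mice of 2 genotypes, with 3 mice in each. Apcfl/fl mice carry a hypomorphic Apc allele on both chromosomes and develop hepatocarcinoma (HCC) with active Wnt/β-catenin signalling, and Apc+/+ mice were the healthy controls. No treatment and no age is given for either genotype, and neither is the share of tumour tissue in each Apcfl/fl liver. In the NanoString assay each miRNA is captured by a colour-coded probe and the molecules are counted without amplification, and the 6 livers held between 82942 and 133331 counts on mouse miRNAs.

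A miRNA is a short RNA that guides the silencing complex to messenger RNAs, mainly through its seed, bases 2 to 8 from the 5′ end. MiR-143 and miR-145 are cut from a common transcript and are abundant in smooth muscle cells, pericytes and fibroblasts, where they act on genes of the contractile and the proliferative state. MiR-199a and miR-214 are made from Dnm3os, a long RNA transcribed against the dynamin gene Dnm3 in mesenchymal cells, and in the liver they are known from stellate cells, the cells that lay down matrix in fibrosis. Hepatocytes, which make up most of the liver's mass, are not known as a main source of these miRNAs.

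The mature strands of the miR-199 and miR-214 genes are shown first, because the strands differ in seed and in the number of genes that can give rise to them, which bears on how their probes can be read. The sequences are from RefSeq (assembly GRCm38.p6), the seed is in capitals, and the probe named miR-214 was matched to miR-214-3p, the strand that carried the plain name in older lists.
mmu-miR-199a-5p: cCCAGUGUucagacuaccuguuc
mmu-miR-199a-3p: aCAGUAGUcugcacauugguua
mmu-miR-214-3p: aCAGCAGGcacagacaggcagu
The seeds of miR-199a-3p and miR-214-3p share 5 of 7 bases in the same place, and no seed is shared by all 3 strands. The miR-199a-3p sequence occurs in 3 hairpins of the RefSeq table, those of Mir199a-1, Mir199a-2 and Mir199b, and it is identical to miR-199b-3p, so its probe cannot tell miR-199a-3p from miR-199b-3p. The miR-199a-5p sequence occurs in 2 hairpins, Mir199a-1 and Mir199a-2, and miR-214-3p in 1. The Mir199a-2 hairpin (chr1:162217814-162217923, plus strand), with both mature strands in capitals, shows that the 5p and 3p strands come from opposite sides of the same stem.
Mir199a-2 hairpin: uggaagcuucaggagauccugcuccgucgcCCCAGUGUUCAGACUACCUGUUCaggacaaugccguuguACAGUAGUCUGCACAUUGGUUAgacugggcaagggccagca
Mir214 (chr1:162223368-162223477, plus strand) is the next miRNA gene after Mir199a-2, with 5444 bases between the hairpins, and RefSeq places both inside Dnm3 and Dnm3os. Mir199a-1 (chr9:21496495-21496564, minus strand) lies inside Dnm2, and Mir199b (chr2:32318460-32318569, plus strand) lies inside Dnm1.

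In the RefSeq gene order, Mir145a and Mir143 are neighbouring miRNA genes inside the long non-coding RNA gene Carmn, and Mir122 is the next miRNA gene after Mir143. This order was read without distances, so it does not place Mir122 in their cluster.

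Of the 5 stromal probes, 4 were above background in every liver, and miR-214 was not. Background was taken from the 33 probes for miRNAs of mouse viruses, as their mean plus 2 SD, which gave a limit of 13.1 to 27.8 counts per liver. The deposited counts of mmu-miR-145 (MIMAT0000157) were 392, 623 and 487 for the 3 controls, against 129, 188 and 376 for Apcfl/fl. The decimal part of a probe's values above the lowest was the same in every liver, as would arise if a constant per probe had been taken off before deposit, which no source used here states. Counts, multiples of the limit and ratios are read from the values as deposited. The counts of mmu-miR-143 (MIMAT0000247) were 117.33, 186.33 and 181.33, against 72.33, 79.33 and 190.33. Before any scaling, the miR-143 count of the third Apcfl/fl liver was above all the controls, and its total count was above those of all livers but the third Apc+/+ one.
The counts of mmu-miR-199a-3p (MIMAT0000230) ran from 110 to 185 in the controls, against 97, 146 and 363 for Apcfl/fl, and those of mmu-miR-199a-5p (MIMAT0000229) were 74.67, 95.67 and 105.67 against 46.67, 60.67 and 152.67. For both strands the highest count of all 6 livers was that of the third Apcfl/fl liver.
MiR-214, the partner of miR-199a-2 in the Dnm3os transcript, gave 14.33, 23.33 and 3.33 counts for the controls, against 13.33, 14.33 and 22.33. It passed the background limit in 3 of 6 livers (the second Apc+/+ liver, the second Apcfl/fl liver and the third Apcfl/fl liver), and with a mean of 15.2 counts it stayed under the minimum of 20 for the test. At this depth no difference in miR-214 could be detected (normalized counts, as defined below, 16.9 ± 12.3 against 13.9 ± 1.71, SD, n = 3 each). MiR-761, the only other mature miRNA in the RefSeq table with the seed of miR-214-3p, had between 3.67 and 12.67 counts, under the limit in every liver.

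**Figure D1:**
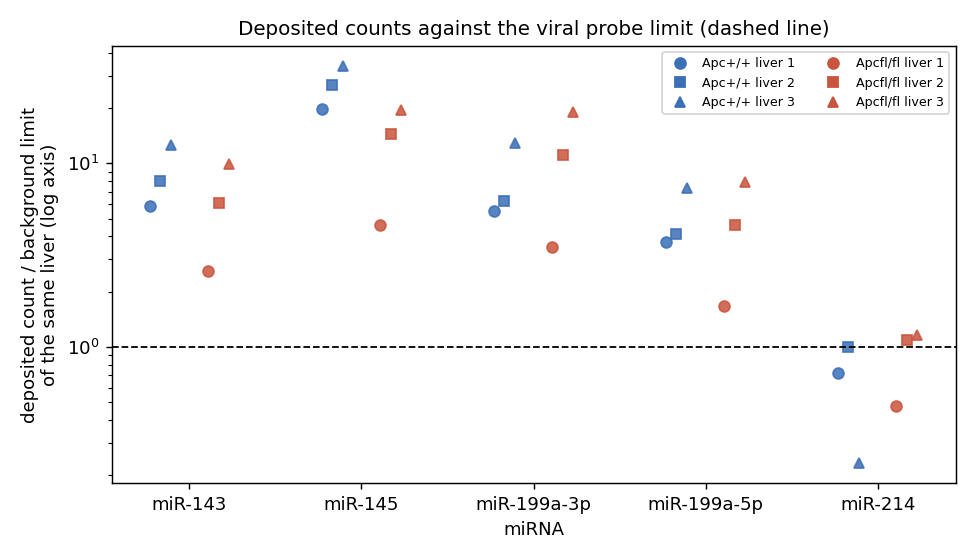
Deposited count of each stromal miRNA divided by the viral probe limit of the same liver, on a log axis, with 1 point per liver (Apc+/+ in blue, Apcfl/fl in red) and the limit as a dashed line at 1. MiR-143, miR-145, miR-199a-3p and miR-199a-5p lie above the line in all 6 livers, and miR-214 in 3.

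On the TMM scale of edgeR, miR-145 and miR-143 were lower in all 3 Apcfl/fl livers than in all 3 Apc+/+ livers. The strands of miR-199a overlapped. Counts were scaled between livers with edgeR's TMM method and are called normalized counts below. The normalized counts of miR-145 were 494.7, 764.8 and 598.2 for the controls, against 116, 199.1 and 246.9 for Apcfl/fl, with a mean of 619.2 ± 136 (SD, n = 3) against 187.3 ± 66.2 (SD, n = 3). The Apcfl/fl mean was 30.3% of the Apc+/+ mean. The log2 fold change was -1.72 (standard error 0.33, 95% interval -2.51 to -0.94), the lowest of the 174 miRNAs tested, and it corresponds to a level 3.3-fold lower, with an interval from 1.92-fold to 5.68-fold. In edgeR's quasi-likelihood test its p-value was 0.0012 before and 0.056 after Benjamini-Hochberg adjustment over the 174 miRNAs, so it missed the threshold of 0.05.
MiR-143, from the same transcript, had normalized counts of 148.1, 228.7 and 222.7, against 65.1, 84 and 125 for Apcfl/fl, with means of 199.8 ± 44.9 and 91.4 ± 30.6 (SD, n = 3 each). No Apcfl/fl liver reached the lowest Apc+/+ liver on this scale, and overlap was not examined on the other scales. The fitted log2 difference was -1.13 (standard error 0.34, 95% interval -1.93 to -0.33, adjusted p = 0.087 in edgeR's test), which ranked 11 from the lowest of the 174. For miR-143 it was -0.69 when scaled to the total count and -0.67 with no filter (adjusted p = 0.36 and 0.54 in edgeR's test).

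MiR-199a-5p, a strand known from activated stellate cells, had normalized counts of 94.2, 117.4 and 129.8 for the controls, against 42, 64.3 and 100.2 for Apcfl/fl. The third Apcfl/fl liver lay inside the range of the controls and the others below it. The fitted log2 difference was -0.72 (standard error 0.39, 95% interval -1.63 to 0.19, adjusted p = 0.29 in edgeR's test). This value moved to -0.29 when scaled to the total count, to -0.26 with no filter, to -0.46 without the first Apcfl/fl liver and to -1.12 without the third.
MiR-199a-3p, the other strand of the hairpin, had normalized counts of 138.8, 178 and 227.2, against 87.3, 154.6 and 238.3 for Apcfl/fl. The highest and the lowest of these 6 values were both from Apcfl/fl livers. The fitted log2 difference was -0.18 (standard error 0.40, 95% interval -1.13 to 0.77, adjusted p = 0.80 in edgeR's test), and this interval reaches from a level 2.19-fold lower to a higher one. The sign of the miR-199a-3p value was positive when the library size was the total count (0.27) or that count without miR-720 (0.22), with no filter on low counts (0.29), without the third Apc+/+ liver (0.07) and without the first Apcfl/fl liver (0.12).

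**Figure D2:**
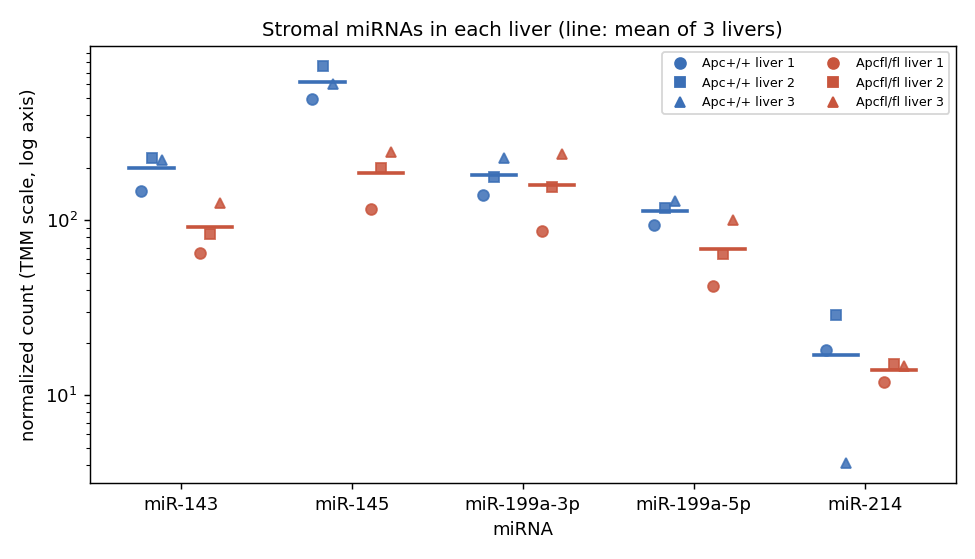
Normalized counts of the 5 stromal miRNAs on a log axis, with 1 point per liver (Apc+/+ in blue, Apcfl/fl in red) and a line at the mean of 3 livers. For miR-145 and miR-143 all red points lie below all blue points, and for miR-199a-5p, miR-199a-3p and miR-214 the colours overlap.

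Read against the whole panel, the pair of miR-143 and miR-145 stood among many miRNAs with a similar pattern. At an adjusted p-value under 0.05, edgeR called 0 of the 4 tested members and 0 of the 174 miRNAs in either direction, and the share called lower was 0%. Before adjustment, p was under 0.05 for 19 lower and 24 higher miRNAs, and 2 of the 4 members (miR-143 and miR-145) were among the lower ones, where the share of all tested miRNAs was 10.9%. The same 2 members were the ones whose genotypes did not overlap, against 18.4% of all tested miRNAs that lay lower in this way. For each of them the two-sided exact permutation test gave p = 0.1, the smallest value that 3 mice against 3 allow, and it gave p = 0.2 for miR-199a-5p and p = 0.7 for miR-199a-3p. DESeq2, run in place of edgeR, called miR-145 (log2 fold change -1.72, adjusted p = 5.2e-05) and miR-143 (-1.12, adjusted p = 0.02), where it called 5.17% of the miRNAs lower. Without the third Apcfl/fl liver, edgeR called both miR-145 (adjusted p = 0.046) and miR-143 (adjusted p = 0.0499), among 8 lower and 11 higher of 168 miRNAs tested. Without the second Apcfl/fl liver it called miR-145 (adjusted p = 0.047) and not miR-143, and with any of the other 4 livers left out it called neither. In bulk tissue, fewer stromal cells and less of a miRNA per stromal cell cannot be told apart.

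**Figure D3:**
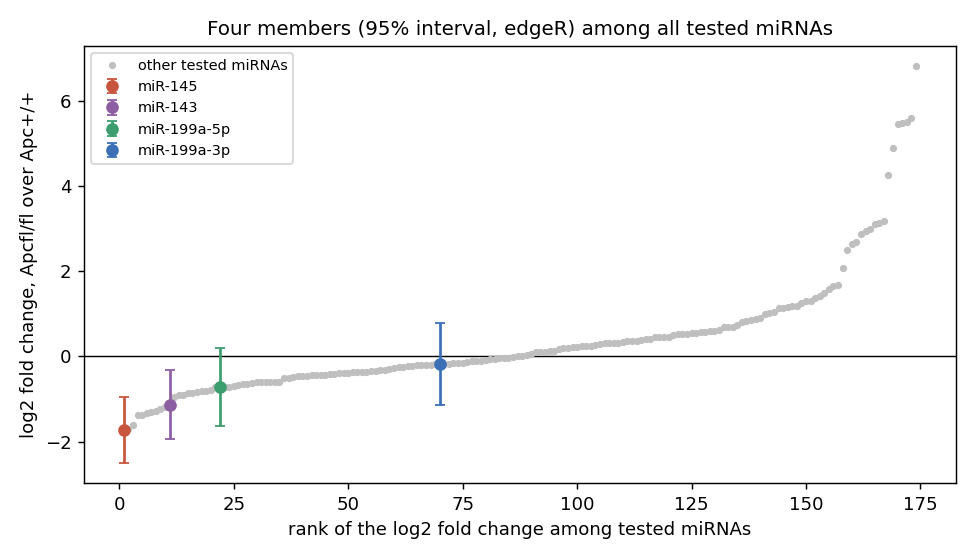
Log2 fold change (Apcfl/fl over Apc+/+) of the 174 tested miRNAs in order of size, with miR-145, miR-143, miR-199a-5p and miR-199a-3p in colour and their 95% intervals (edgeR) as bars. MiR-145 is at -1.72, at the low end of the row, miR-199a-3p at -0.18 is the coloured point nearest the middle, and the intervals of miR-199a-3p and miR-199a-5p cross 0.

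The mean level of the miR-143 and miR-145 cluster did not overlap between the genotypes, and that of miR-199a did. The miR-143 and miR-145 cluster, as the mean log2 normalized count (pseudocount 1) of its 2 members, was at 8.09, 8.71 and 8.52 for the controls, against 6.46, 7.03 and 7.47 for Apcfl/fl, which do not overlap. The difference of the means was -1.45. For miR-199a, with both strands and without miR-214, which was not above background in every liver, the values were 6.85, 7.19 and 7.43, against 5.94, 6.66 and 7.28 for Apcfl/fl, with a difference of -0.53 and overlapping genotypes. This miR-199a difference was -0.12 when scaled to the total count, -0.18 without the first Apcfl/fl liver and -0.88 without the third. These means over chosen miRNAs are given as a description, without a test. Within a liver, the geometric mean of miR-199a was 0.424, 0.347 and 0.472 times that of miR-143 and miR-145 for the controls, against 0.7, 0.773 and 0.881 times for Apcfl/fl. Apart from the pseudocount this quotient does not depend on the scaling between livers, and the genotypes did not overlap in it.

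The change of a ratio between single members within a liver needs no scaling. It is close to the difference of their fold changes, so it repeats their order, from miR-145 through miR-143 and miR-199a-5p to miR-199a-3p. Each of the 6 pairs of the 4 members was written with the less lowered member on top, which sets the direction. In all 6 pairs every Apcfl/fl ratio lay above every control ratio, most narrowly for miR-199a-5p over miR-143 (highest control 0.639, lowest Apcfl/fl 0.650). The exact permutation test, two-sided, gave p = 0.1 for each, the smallest possible value, so that none of the 6 could pass 0.05. Of all 15051 pairs of tested miRNAs, 27.2% did not overlap. The pairs are not independent, since 4 members make all 6 of them.
The largest of the 6 differences was between the loci. The ratio of miR-199a-3p to miR-145 was 0.282, 0.234 and 0.381 for the controls, against 0.754, 0.778 and 0.966 for Apcfl/fl. The mean log2 ratio was higher by 1.5 (standard error 0.43, 95% interval 0.52 to 2.48). A limma fit of the ratio of every other tested miRNA to miR-145 gave an adjusted p of 0.02 for miR-199a-3p, in a fit where 72.3% of the miRNAs were called higher relative to miR-145. With miR-199a-3p as the reference the adjusted p was 0.27 and 0% of the miRNAs were called lower, so the call depends on which member is taken as the reference. Without the second Apc+/+ liver the adjusted p with miR-145 as reference was 0.083 (limma).
The ratio of miR-199a-5p to miR-145 was 0.193, 0.155 and 0.219, against 0.367, 0.326 and 0.408 for Apcfl/fl, with a log2 difference of 0.97 (95% interval 0.02 to 1.92, limma adjusted p = 0.06). The limma adjusted p was 0.19 with miR-199a-5p as the reference and 0.093 to 0.18 with 1 liver left out. It was 0.048 with the replicate number as a block, though mice with the same number did not deviate together (correlations -0.07, -0.07 and 0.13). Against miR-143, the log2 ratio was higher by 0.88 for miR-199a-3p (95% interval -0.02 to 1.78, limma adjusted p = 0.12) and by 0.35 for miR-199a-5p (95% interval -0.51 to 1.21, limma adjusted p = 0.42). In the fit relative to miR-143, 19.7% of the miRNAs were called higher.

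Ratios between members of the same transcript or hairpin did not overlap between the genotypes, but neither passed the test in the fit across all miRNAs. MiR-143 was 0.301, 0.3 and 0.374 times miR-145 for the controls, against 0.564, 0.425 and 0.508 times for Apcfl/fl. The log2 difference was 0.62 with a 95% interval of -0.33 to 1.56 (limma adjusted p = 0.18), which includes 0. MiR-199a-3p was 1.47, 1.51 and 1.74 times miR-199a-5p, against 2.06, 2.38 and 2.37 times for Apcfl/fl. The SD of this log2 ratio was 0.13 in Apc+/+ and 0.12 in Apcfl/fl liver, the smallest of the 6 pairs in each genotype, and the difference was 0.53 (95% interval -0.36 to 1.42, limma adjusted p = 0.38 with miR-199a-5p as the reference, a fit that called 0% of the miRNAs higher). The limma intervals use a spread shared with the other miRNAs, which is wider than the spread of this pair alone. As the sequences above show, the 3p probe also reads the Mir199b product while the 5p sequence is not in that hairpin, and the part of Mir199b in this ratio was not tested. Probes differ in their capture, so only the change of a ratio between livers is read here and not its size.

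**Figure D4:**
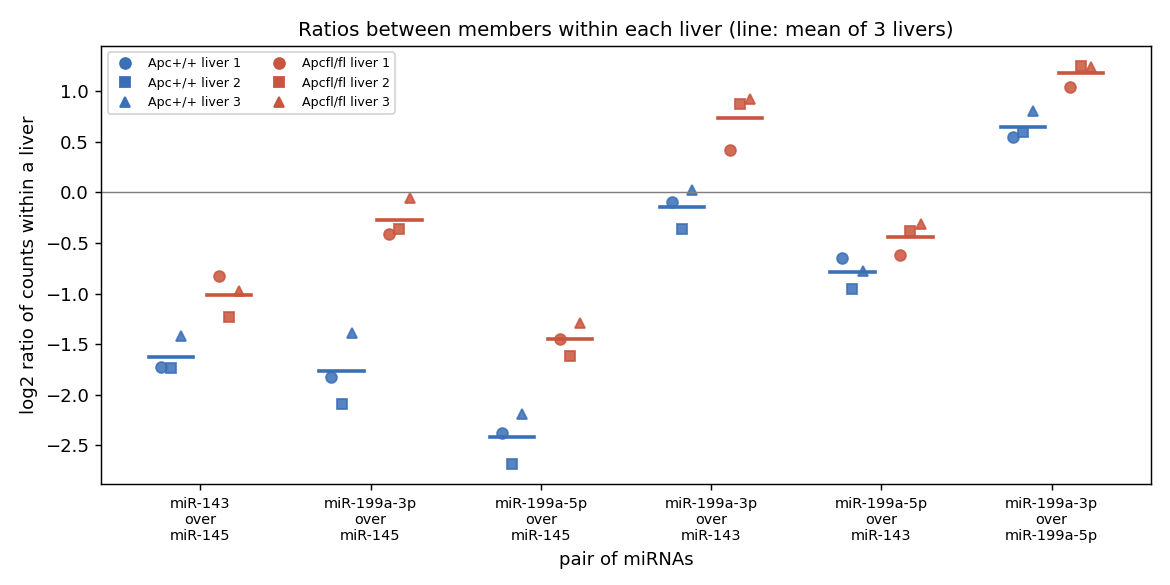
Log2 ratio of the counts of 2 stromal miRNAs within each liver for the 6 pairs, with 1 point per liver (Apc+/+ in blue, Apcfl/fl in red) and a line at the mean of 3 livers. In each pair all red points lie above all blue points, with the widest gap of means, 1.5, for miR-199a-3p over miR-145 and the narrowest, 0.35, for miR-199a-5p over miR-143.

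Within the Apcfl/fl genotype the members varied together. All 4 tested members had their lowest normalized count in the first Apcfl/fl liver and their highest in the third, an order found in 15.5% of all tested miRNAs. It was also found in 4 of the 7 tested miRNAs of the other mesenchymal list described below, so it is not particular to the members. The highest Apcfl/fl liver exceeded the lowest by 1.92-fold for miR-143, 2.13-fold for miR-145, 2.39-fold for miR-199a-5p and 2.73-fold for miR-199a-3p. Between the Apc+/+ livers the span was narrower, from 1.38-fold for miR-199a-5p to 1.64-fold for miR-199a-3p, and all 4 members were lowest in the first Apc+/+ liver, as were 36.2% of all tested miRNAs. Over the 6 livers, with each miRNA centred on its own mean, miR-143 was nearer to miR-199a-5p (root mean square distance 0.22 on the log2 scale) than to its neighbour miR-145 (0.35), and miR-145 was farthest from miR-199a-3p (0.78). This distance takes in the difference between genotypes, so it follows the order of the fold changes and does not describe variation within a genotype alone.

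The miRNAs with the most similar course over the 6 livers differed between the loci. By the same distance, the nearest to the mean of miR-143 and miR-145 were miR-122 (0.25), the main miRNA of hepatocytes, miR-148a (0.25), also abundant in hepatocytes, and miR-154 (0.26), against a median of 0.95 for all other tested miRNAs. Their log2 fold changes were -1.71, -1.31 and -1.19, each with an adjusted p of 0.056 in edgeR's test. As the distance takes in the difference between genotypes, it favours miRNAs with like fold changes and is not separate from them. The nearest to the mean of miR-199a were miR-532-5p (0.26), miR-10a (0.28) and let-7a (0.30), against a median of 0.70, with log2 fold changes of -0.42 (adjusted p = 0.58, with the sign positive at 0.024 when no filter was used), -0.63 (adjusted p = 0.25) and -0.82 (adjusted p = 0.068 in edgeR's test).

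Lists of other miRNAs showed how cell type markers lay in the same livers, beside a median log2 fold change of 0.01 over all tested miRNAs. Of 11 other mesenchymal probes, 4 were above the limit in every liver and 2 in none, 7 were tested, and all 7 had a lower fitted level, with a median of -0.63. This median was -0.24 when scaled to the total count, -0.26 when miR-720 was left out of that total, -0.0011 with no filter and -0.99 without the third Apcfl/fl liver. Their summed normalized counts, of which miR-125b-5p made up most on average, ranged from 1399 to 1861 in Apc+/+ and from 837 to 1089 in Apcfl/fl liver. Among them, miR-125b-5p was at 1141.5 ± 193 normalized counts in Apc+/+ and 591.9 ± 95.3 in Apcfl/fl liver (SD, n = 3 each), with a log2 fold change of -0.95 and an adjusted p of 0.056 in edgeR's test. MiR-31 was above the limit in 3 of 6 livers and passed the minimum count through the Apc+/+ livers (39.2 against 12.9 normalized counts), so its log2 fold change of -1.60 (adjusted p = 0.12 in edgeR's test) is uncertain, and it was -2.28 with the viral probe mean subtracted. MiR-152 had a log2 fold change of -0.20 (adjusted p = 0.75 in edgeR's test), positive when scaled to the total count (0.15) or to that without miR-720 (0.14), with no filter (0.23) and without the first Apcfl/fl liver (0.065). None of the 7 passed an adjusted p of 0.05 in edgeR's test, 3 were lower at an unadjusted p under 0.05 (10.9% of all tested miRNAs were), and 4 did not overlap (18.4% of all tested). MiR-31, which passed the minimum count through the Apc+/+ livers, is counted in the 7, the 3 and the 4, so its direction there adds no support.
All 7 hepatocyte markers were above background in every liver and had a lower fitted level, with a median of -0.80, and 5 were lower at an unadjusted p under 0.05 (10.9% of all tested). The median was -0.43 when scaled to the total count, with or without miR-720, and -0.37 with no filter. Their summed normalized counts ranged from 28419 to 44280 in Apc+/+ and from 9872 to 15899 in Apcfl/fl liver. On average most of each sum was miR-122, with means of 29867 and 9157. The endothelial markers miR-126-3p (-0.23, adjusted p = 0.46) and miR-126-5p (-0.46, adjusted p = 0.23 in edgeR's test) had smaller differences, and their sum ranged from 3585 to 3807 against 2764 to 3552. The sign of miR-126-3p was positive when scaled to the total count (0.17) or to that without miR-720 (0.15), and with no filter (0.21), and so was the median of both (-0.34, against 0.056, 0.032 and 0.084 in the same order).
Of 8 blood cell probes, 5 were above the limit in every liver and 1 in none, and 7 were tested, 6 with a higher fitted level (median 0.53), with sums of 1181 to 1643 against 1039 to 4950. Without the second Apcfl/fl liver this median was -0.019, so its direction rests on that liver. The 6 include miR-155, which was at the lowest deposited value in every Apc+/+ liver. It could pass the minimum count only through the Apcfl/fl livers, so its direction was set by the filter. Of 5 biliary epithelial probes, 0 were above the limit in every liver and 2 in none, and 3 were tested, all with a higher fitted level (median 0.34), with sums of 73.6 to 141.6 against 72.3 to 213.2. Without the second Apcfl/fl liver the biliary median was -0.27. Of the 3, miR-429 passed the minimum count through the Apcfl/fl livers (18.5 normalized counts in Apc+/+ against 31.5), so its direction adds no support. Striated muscle markers were near background: 0 of 4 were above the limit in every liver, 3 were above it in no liver, and their sums were 29.5 to 76.1 against 13.8 to 21.6. The part of these cell types in the values of the stromal miRNAs was not tested.

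MiRNAs with a known link to liver fibrosis did not follow a common direction. Of the 13 on this list, which shares miR-378 with the hepatocyte list and miR-150 and miR-155 with the blood list, 12 were tested, 7 with a lower and 5 with a higher fitted level, and the median was -0.12. This median was positive when scaled to the total count (0.34, or 0.30 when miR-720 was left out), with no filter (0.27), without the first Apcfl/fl liver (0.17) and without the second Apc+/+ liver (0.079). MiR-21, which rises in many tumours and in fibrotic tissue, was at 3376 ± 813 normalized counts in Apc+/+ and 8367 ± 848 in Apcfl/fl liver (SD, n = 3 each), with a log2 fold change of 1.31 and an adjusted p of 0.056 in edgeR's test. MiR-29a, which acts on collagen messenger RNAs, had a log2 fold change of -0.32 and miR-29c of -0.44 (adjusted p = 0.33 and 0.25). MiR-155 was at 1, the lowest deposited value, in every Apc+/+ liver and above the limit in 2 Apcfl/fl livers, with at most 78.33 counts, and its fold is not given. It is counted among the 5 higher ones, although it passed the minimum count only through the Apcfl/fl livers. MiR-222, also among the 5, passed the minimum through the Apcfl/fl livers as well (19.4 normalized counts in Apc+/+ against 29.2). The direction of neither adds support. The sign of miR-29a was positive when scaled to the total count (0.085) or to that without miR-720 (0.067), and with no filter (0.091). None of the 12 passed an adjusted p of 0.05.

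Ratios to the most abundant marker of a list within each liver, which need no scaling, are given as a description, with no test. MiR-143 went with the strands of miR-199a relative to some markers and with miR-145 relative to another. Relative to miR-122, the genotypes overlapped for miR-145, with log2 ratios from -5.93 to -5.38 in Apc+/+ and from -5.82 to -5.35 in Apcfl/fl liver. MiR-199a-3p lay from -7.48 to -7.24 in Apc+/+ and from -6.19 to -5.40 in Apcfl/fl liver relative to miR-122, higher by 1.45 on average, and miR-199a-5p was higher by 0.92 and miR-143 by 0.57, without overlap of the genotypes for any of the 3.
Relative to the endothelial miR-126-3p, miR-145 lay from -2.74 to -2.09 in Apc+/+ and from -4.40 to -3.68 in Apcfl/fl liver, a mean difference of -1.53, and miR-143 differed by -0.91, both without overlap. MiR-199a-3p differed by -0.03 and miR-199a-5p by -0.56 from miR-126-3p, both with overlapping genotypes. Relative to miR-125b-5p, the most abundant of the other mesenchymal miRNAs tested, miR-145 had a mean difference of -0.82 without overlap, while miR-143 (-0.20), miR-199a-5p (0.15) and miR-199a-3p (0.68) overlapped between the genotypes. Relative to miR-21 all 4 members were lower without overlap, with mean differences of -2.48 for miR-143, -3.10 for miR-145, -1.60 for miR-199a-3p and -2.13 for miR-199a-5p. The markers changed too, with log2 fold changes of 1.31 for miR-21, -1.71 for miR-122, -0.95 for miR-125b-5p and -0.23 for miR-126-3p. A ratio therefore carries the change of its marker. The share of all tested miRNAs that did not overlap was not computed for each marker, and over all pairs of tested miRNAs it was 27.2%.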

How the data were processed

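NanoString counts of 599 probes (566 for mouse miRNAs) in the liver RNA of 6 mice were analysed, 3 of each genotype, with groups and replicate numbers from the sample labels. RNA had been used at 33 ng/ul. The table holds estimated counts, deposited without scaling between livers. Values were often not whole, the decimal part was the same in every liver for all 584 probes with at least 2 values above the lowest (compared to 2 decimals), 12.4% of them were at the lowest value of 1, and the tool that made them is not given in the sources used here. Whole counts had been assumed when the tests were planned, so counts were rounded, and mouse miRNAs with a mean of at least 20 counts (174, with 97.3% of the counts) were tested by quasi-likelihood in edgeR 4.0.16 (TMM factors 0.655 to 1.25, Benjamini-Hochberg adjustment over all tested miRNAs) in R 4.3.3. Ratios of members within a liver used a pseudocount of 1 and were compared with limma 3.58.1 (ratios of all tested miRNAs to a member) and with exact permutation tests. All intervals are 95% intervals.

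The members and lists were chosen with earlier results of these data known. The lists were written from general knowledge. Other miRNAs named were, at most, the 2 most abundant and the 2 with the smallest p of a list and the 3 nearest to the mean of a locus, except that miR-29c, next by p, was named for its fold in place of miR-155, which was at the lowest value in all Apc+/+ livers. MiR-222 was named only for the way it passed the minimum count. Between livers of the same genotype, chi-square per degree of freedom was 17.2 to 89.1, so none was taken for a repeat of another. The number of counts limits precision, and intervals come from the spread between mice.

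On simulated data (10 runs of 174 miRNAs, 40 changed), edgeR called 2% of miRNAs changed 2-fold and 60.2% of those changed 4-fold, with 11.1% and 4.37% of the calls false. At 2-fold so few calls were made that the share of false ones is imprecise. The alternatives tried were no filter, the total count, scaling to the top 100 miRNAs, DESeq2 1.42.0, a minimum of 60 counts, limma on log2 values, the replicate block, each liver left out, pseudocounts of 10 and 0.1 and subtraction of the viral probe mean. The subtraction in the edgeR fit, the total count without miR-720 and the exchange of reference were added after the data had been seen.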

Additional observations from a re-analysis of the deposited data

How the results depend on the processing

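MiR-143, miR-145 and miR-199a-5p kept a negative log2 fold change under all 15 alternatives, with miR-199a-5p between -1.12 and -0.26 (leave-one-out -1.12 to -0.46). The adjusted p of miR-145 (0.056 with edgeR) fell under 0.05 in 8 of them: DESeq2 (-1.72), the top 100 size factor (-1.85), the count minimum of 60 (-1.64), the viral probe mean subtracted (-1.93), the total count without miR-720 (-1.35), the replicate block (-1.77) and without Apcfl/fl replicate 2 or 3. With 1 liver left out it ranged from -2.0 to -1.45. MiR-143 was called in 2, DESeq2 (-1.12) and without Apcfl/fl replicate 3. Its lowest and highest values were -1.45 and -0.92 when a liver was dropped, and -1.45 and -0.67 over all alternatives. MiR-199a-3p was positive when no filter was set (0.29) and when scaled to the total count (0.27, or 0.22 leaving out miR-720). Leaving out 1 liver gave -0.61 to 0.12, positive without Apc+/+ replicate 3 (0.07) or Apcfl/fl replicate 1 (0.12). The total count moved the median of all tested miRNAs from 0.01 to 0.45, and relative to that median miR-199a-3p was at -0.18, against -0.19 with TMM. Relative to the median of its own fit it stayed positive with no filter (0.37) and without Apcfl/fl replicate 1 (0.12).

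The ratio of miR-199a-3p to miR-145 (log2 difference 1.5) lost its call without Apc+/+ replicate 2 (1.33, range 1.33 to 1.69) and, at the same 1.5, with the other member as reference. That of miR-199a-5p to miR-145 gained one with the replicate block (0.97), and in no other of its 11 alternatives. The other 4 ratios stayed uncalled and positive throughout.

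The miRNAs called at an adjusted p under 0.05 (0 lower, 0 higher) were 9 and 20 by DESeq2, 6 and 12 at the count minimum of 60, 7 and 3 after subtraction of the viral probe mean, 1 and 16 when scaled to the total count, 3 and 18 when miR-720 was left out of it, and 6 and 1 when scaled to the top 100. Leaving out 1 liver gave 0 to 8 and 0 to 11, both highest without Apcfl/fl replicate 3. Mice with the same number did not deviate together (correlations -0.07, -0.07 and 0.13), and the replicate block gave 3 and 4.

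Of the other miRNAs, values were positive when scaled to the total count, when unfiltered and when miR-720 was left out of the total, in this order, at 0.17, 0.21 and 0.15 for miR-126-3p, 0.15, 0.23 and 0.14 for miR-152 (leave-one-out -0.43 to 0.065) and 0.085, 0.091 and 0.067 for miR-29a. MiR-532-5p was at 0.024 with no filter. The list medians with 1 liver left out ran from -0.99 to -0.47 (mesenchymal), -0.90 to -0.58 (hepatocyte), -0.46 to -0.25 (endothelial), -0.019 to 0.92 (blood cell), -0.27 to 0.70 (biliary epithelial) and -0.27 to 0.17 (fibrosis). The causes were not tested.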
